A study of Mus musculus with 6 samples.

Results

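Notch signalling was described here through 10 genes: the receptors Notch1, Notch2, Notch3 and Notch4, the ligands Jag1, Jag2, Dll1 and Dll4, and the target genes Hes1 and Hey1. They were taken by name from the 22310 genes of the deposited table, and all 10 were in it. RNA had been sequenced from MMTV-PyMT mouse mammary tumor cells, which carry the polyoma middle T oncogene under the MMTV promoter, a promoter active mainly in mammary epithelium. The primary cells came from tumors of adult mice on the FVB/N background, and the labels give the genotype of all 6 libraries as WT with the PyMT transgene named as the cell line. After 1 day in culture with 2% FBS, 10 µg/ml insulin and 20 ng/ml hEGF, cells without the lineage markers Ter119, CD31 and CD45 were sorted by CD24 and CD90. Metastasis-initiating cells (MICs) were those positive for both (Lin-CD24+CD90+), non-MICs were positive for CD24 alone (Lin-CD24+CD90-), and each population has 3 libraries. The libraries are numbered 1 to 3 in both populations, and same-numbered libraries departed from their group means together, so each MIC library was also read against the non-MIC library of its number, called a pair.

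Notch receptors are single-pass membrane proteins that are activated by Jagged or Delta-like ligands on a neighbouring cell. Binding leads to cleavage by an ADAM protease and then by γ-secretase, which frees the intracellular domain to enter the nucleus, where it joins the DNA-binding protein RBPJ and Mastermind coactivators and switches on targets such as the Hes and Hey repressors. In the mammary gland the pathway is known for its part in the choice between luminal and basal fates, and in blood vessels for the control of sprouting.

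The deposited values are read counts scaled so that each library sums to the same total, and are called scaled values below. Dividing by the value of 1 read gave back between 31467281 and 51759769 whole reads per library, with both libraries of pair 3 the deepest. Thy1, which encodes CD90, had 1399, 271 and 1117 reads in MIC libraries 1, 2 and 3 and 16, 20 and 18 in the non-MIC libraries, so the gate is visible in the RNA. Cd24a ranged from 10488 to 26741 reads without separating the populations. Basal or myoepithelial markers (10 of 10 in the table) had summed scaled values that were higher in MICs by 1.77, 0.13 and 0.72 on the log2 scale in pairs 1, 2 and 3, and 10, 7 and 10 of the 10 genes were higher. In pair 2 the sum hides opposite moves, with Acta2 at 2.38 and Tagln at 2.61 beside Krt14 at -0.90. The sum of 12 luminal markers, carried by Krt8 and Krt18, differed by -0.25, -0.39 and 0.08, and 4 of the 12 were lower in MICs in all 3 pairs (Epcam, Elf5, Kit and Prlr), Elf5 by -1.31, -0.93 and -1.04. Summed reads per library were 542 to 2799 for fibroblast markers (8 of 8 in the table), 189 to 1800 for leukocyte markers (7 of 8) and 0 to 4 for the 1 erythroid marker listed of 4. The part of any of these markers in the values of the Notch genes was not tested. In these bulk samples, fewer cells that express a gene and less RNA of it per cell cannot be told apart.

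No member passed the test between the populations. In limma on log2(scaled value + 1), the adjusted p was 1 for each of the 10 genes, 0 of 10 members were called, and the background over all genes was 0%. At an unadjusted p under 0.05 the limma count was again 0 of 10, against 0.735% of all genes lower and 0.708% higher in MICs. edgeR on the recovered reads called 0% of genes after adjustment and 0 members, and at an unadjusted p under 0.05 it held 0 members beside 0.515% of all genes lower and 0.807% higher. With the replicate number as a block, which removes the level shared by a pair, limma called 0.13% of all genes and edgeR 1.41%, again with 0 members among them. At an unadjusted p under 0.05 the blocked limma fit held 1 member, Notch3, among those lower in MICs and 0 among those higher, beside 5.97% and 5.24% of all genes. The corresponding count in edgeR with the block was 2, Notch1 and Notch3, both lower, with 0 higher, beside 5.85% of all genes lower and 5.89% higher. In each of the 10 genes the MIC values overlapped those of the non-MICs, whereas 3.55% of all genes were lower and 2.69% higher without overlap. An exact two-sided permutation test of single genes, which cannot go below 0.1 with 3 libraries against 3, gave p-values from 0.2 for Notch1 to 1.0 for Hes1.

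**Figure D1:**
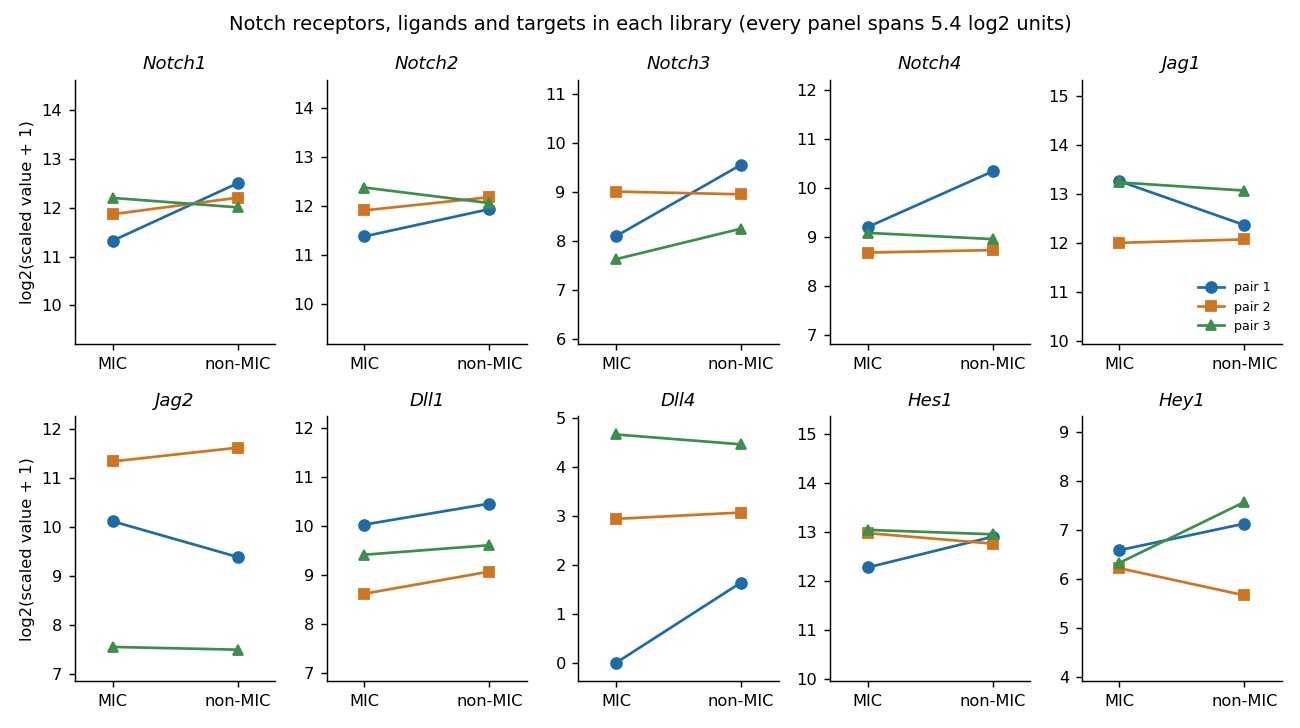
log2(scaled value + 1) of each member in the 3 MIC and 3 non-MIC libraries, with lines joining the libraries of a pair. The lines of Dll1 slope the same way in all 3 pairs, those of Jag2 lie far apart between pairs, and the Dll4 point at 0 is a library with 0 reads.

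Levels were compared between genes per kb of exon, as mean scaled value per kb over the 6 libraries. Hes1, a transcriptional repressor and a classical Notch target, stood highest at 3586, and its lowest library (2425) lay above the highest Jag1 library. Jag1, a ligand of the Jagged class, followed at 1198, with a range from 707 to 1692 that did not reach the next gene. Notch2 (379) and Notch1 (299), the most abundant receptors, overlapped each other across libraries, from 246 to 491 and from 180 to 406. Dll1 (192) and Jag2 (188) came next and overlapped both each other and Notch1. Notch4 (77.1), Notch3 (52.2) and Hey1 (31.9) formed a lower tier, in which each gene overlapped its neighbour. Dll4, at 2.66 per kb, was lowest and lay below every Hey1 library. The ranges of neighbours were therefore separate only between Hes1 and Jag1, between Jag1 and Notch2, and between Hey1 and Dll4.

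**Figure D2:**
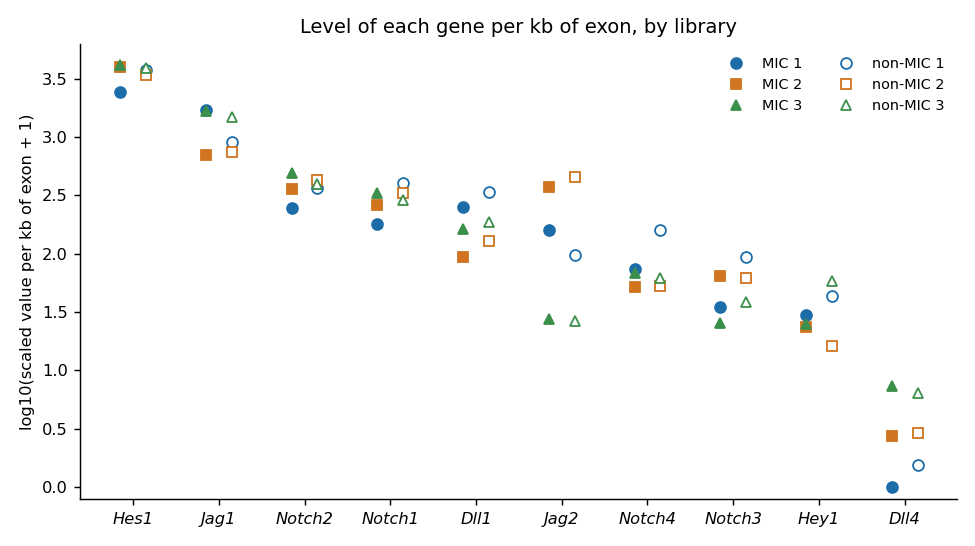
Scaled value per kb of exon of each member, as log10(value + 1), with MIC libraries filled and non-MIC libraries open and the shape giving the pair. Hes1 lies above all other members in each library, and Jag2 spreads over the widest range among the members other than Dll4.

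The receptors are annotated on GRCm38 as follows. Notch1 (ENSMUSG00000026923) lies on chromosome 2 from 26457903 to 26516663 on the minus strand, Notch2 (ENSMUSG00000027878) on chromosome 3 from 98013527 to 98150361 on the plus strand, Notch3 (ENSMUSG00000038146) on chromosome 17 from 32120820 to 32166852 on the minus strand, and Notch4 (ENSMUSG00000015468) on chromosome 17 from 34564268 to 34588503 on the plus strand. Their 4 promoters differ widely in CG dinucleotides, the sites of DNA methylation. In RefSeq windows of 300 bases (GRCm38.p6), from 250 bases before to 50 bases after the start, Notch2 held 41 CGs, Notch3 25, Notch1 23 and Notch4 5, beside a median of 7 over 32851 windows. The 250 bases before the start are shown for Notch1, Notch2 and Notch4, the receptors with the same order of differences over the pairs, 5′ to 3′ on the gene's strand and with each CG in capitals. They come from chr2:26503823-26504072 on the minus strand, chr3:98013288-98013537 on the plus strand and chr17:34564045-34564294 on the plus strand. The RefSeq start of Notch1 lies 12841 bases inside the gene as GENCODE gives it, whose outermost start is farther upstream.
Notch1: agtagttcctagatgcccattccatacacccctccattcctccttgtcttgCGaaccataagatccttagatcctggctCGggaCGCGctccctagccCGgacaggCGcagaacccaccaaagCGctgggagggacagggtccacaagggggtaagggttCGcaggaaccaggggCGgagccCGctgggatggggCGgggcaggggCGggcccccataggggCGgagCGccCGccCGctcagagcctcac
Notch2: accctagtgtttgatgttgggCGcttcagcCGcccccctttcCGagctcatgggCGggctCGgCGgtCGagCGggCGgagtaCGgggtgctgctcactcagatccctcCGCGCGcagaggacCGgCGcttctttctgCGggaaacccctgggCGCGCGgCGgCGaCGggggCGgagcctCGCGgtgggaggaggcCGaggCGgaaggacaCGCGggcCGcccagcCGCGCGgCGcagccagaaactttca
Notch4: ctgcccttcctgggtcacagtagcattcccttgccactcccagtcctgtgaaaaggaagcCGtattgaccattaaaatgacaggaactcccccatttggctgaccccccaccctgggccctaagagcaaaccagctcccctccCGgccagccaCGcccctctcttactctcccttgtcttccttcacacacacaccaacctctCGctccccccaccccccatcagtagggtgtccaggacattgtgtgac
The capitals number 34 CGs in the Notch2 stretch, 16 in that of Notch1 and 4 in that of Notch4. The core of the RBPJ binding motif, TGGGAA on either strand (TTCCCA on the other), was in 0 of the 9 windows of the 8 members with an entry (Dll1 has a pair of starts) and in 25.6% of all windows. Hes1 and Hey1 have no entry in the table used.

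Notch1, the receptor that acts in luminal progenitors among many other cells, had scaled values of 2560, 3725 and 4691 in MIC libraries 1, 2 and 3 and of 5778, 4708 and 4107 in the non-MIC libraries, from 2374 to 6938 reads. The lowest value was that of MIC library 1 and the highest its non-MIC partner, and the sign of the difference was negative in pairs 1 and 2 but positive in pair 3. The MIC to non-MIC ratio was 0.443, 0.791 and 1.14, and the mean log2 difference was -0.44 ± 0.27 (SE of limma, n = 3 libraries a group). With the block the 95% interval was -0.92 to 0.04. The mean was -0.20 without MIC library 1, -0.073 without pair 1 and -0.76 without pair 3.

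Notch2, a broadly expressed relative, had scaled values of 2648, 3827 and 5289 in MICs and of 3895, 4614 and 4244 in non-MICs. MIC library 1 was again lowest, and the order of the pairs was that of Notch1, with differences of -0.56, -0.27 and 0.32 on the log2 scale. Its mean difference was -0.17, with a blocked 95% interval of -0.57 to 0.23, and it was 0.085 without MIC library 1.

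Notch4, known best from vascular endothelium and as a site of mouse mammary tumor virus insertion, had scaled values of 584, 407 and 538 in MICs and of 1287, 422 and 493 in non-MICs. A single library, non-MIC library 1, stood apart from the other 5, which lay between 407 and 584. The log2 differences were -1.14, -0.05 and 0.13, with a mean of -0.35, and without non-MIC library 1 the mean in limma was 0.14. Endothelial markers were few here: 9 of 12 were in the table, Tie1, Cldn5 and Robo4 being not listed, and the sum of the 9 was between 55 and 224 reads per library. Notch4 alone had 366 to 1216 reads, and the part of endothelial cells in these values was not tested. Over pairs 1, 2 and 3 the endothelial sum was 92, 131 and 92 reads in MICs and 55, 224 and 120 in non-MICs. Of the 9 markers, 8, 5 and 2 were higher in MICs in pairs 1, 2 and 3. Some of these rest on few reads, such as Erg with 2, 1 and 2 in MICs and 0 in each non-MIC library.

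Notch3, a receptor of vascular smooth muscle cells, pericytes and luminal progenitors, had scaled values of 273, 514 and 197 in MICs and of 751, 494 and 304 in non-MICs, from 253 to 710 reads. The MICs were lower in pairs 1 and 3 and about level in pair 2, and the groups overlapped. The log2 differences were -1.46, 0.06 and -0.62, and the mean of -0.68 ± 0.47 (SE of limma) was the farthest from 0 among the members with at least 10 reads in every library. With the block its 95% interval was -1.24 to -0.11, with an adjusted p of 0.419 in limma and 0.104 in edgeR. The mean moved to -1.06 without MIC library 2, -0.37 without MIC library 3, -0.36 without non-MIC library 1, -0.28 without pair 1 and -1.04 without pair 2. Among pericyte markers Mcam took most reads, up to 12430, and was higher in MICs by 1.12, 0.57 and 0.56, while Pdgfrb differed by -0.15, 0.17 and 1.87 and Rgs5 had at most 2 reads. Kit, a receptor of luminal progenitors, differed by -1.50, -0.02 and -0.68 over the pairs, beside -1.46, 0.06 and -0.62 for Notch3. Elf5, a transcription factor of the same cells, differed by the values given above. In pair 2 Kit had 14 reads in MICs and 15 in non-MICs, and Elf5 13 and 27. Other luminal markers went the other way, such as Gata3 at 0.52 in pair 2. Of the 12, 10, 8 and 8 were lower in MICs in pairs 1, 2 and 3, and 2, 3 and 4 higher. The part of these cell types in the Notch3 values was not tested.

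**Figure D3:**
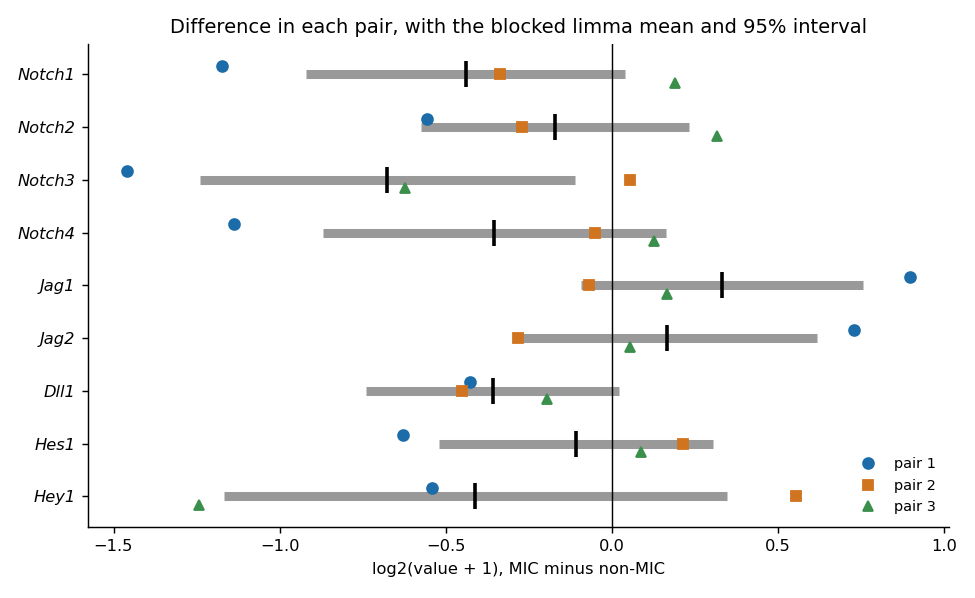
MIC minus non-MIC difference of log2(scaled value + 1) in each pair (colored symbols) for 9 members, with the mean (black bar) and 95% interval (grey band) of limma with the replicate block. Dll4 is left out because pair 1 holds 0 and 2 reads. The 4 receptors all have pair 1 at the left, and the interval of Notch3 alone does not reach 0 before adjustment.

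In pair 1 all 4 receptors were lower in MICs, with a median log2 difference of -1.16, while the medians in pairs 2 and 3 were -0.16 and 0.16. The receptors have long transcripts, with 14232, 10782, 8089 and 8061 exonic bases for Notch1, Notch2, Notch3 and Notch4, and all 4 fall in the longest 25% of genes (7068 bases or more, among genes with a mean scaled value of at least 100). In pair 1 the log2 difference moved with length over all such genes, from a median of 0.21 in the shortest 25%, of which 32.1% were lower in MICs, to -0.35 in the longest, of which 76.1% were lower. The shortest and longest bins lay closer together in pair 2, at 0.06 and -0.05, and in pair 3, at -0.04 and -0.05. The pair 1 differences of the receptors exceeded the median of their length bin: 3.66%, 33.9%, 1.08% and 4.48% of the 2789 longest genes lay below Notch1, Notch2, Notch3 and Notch4. When the trend on length was subtracted from each library, pair 1 differed by -0.70, -0.18, -1.17 and -0.85, and the blocked means were -0.26 ± 0.18 for Notch1, -0.01 ± 0.17 for Notch2, -0.54 ± 0.23 for Notch3 and -0.22 ± 0.21 for Notch4 (SE of limma). Over the deposited values the means were farther from 0, at -0.44 for Notch1, -0.17 for Notch2, -0.68 for Notch3 and -0.35 for Notch4. The mean of Notch2 was thus near 0 after the subtraction. The part of length in the receptor values of pair 1 was not tested beyond this.

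**Figure D4:**
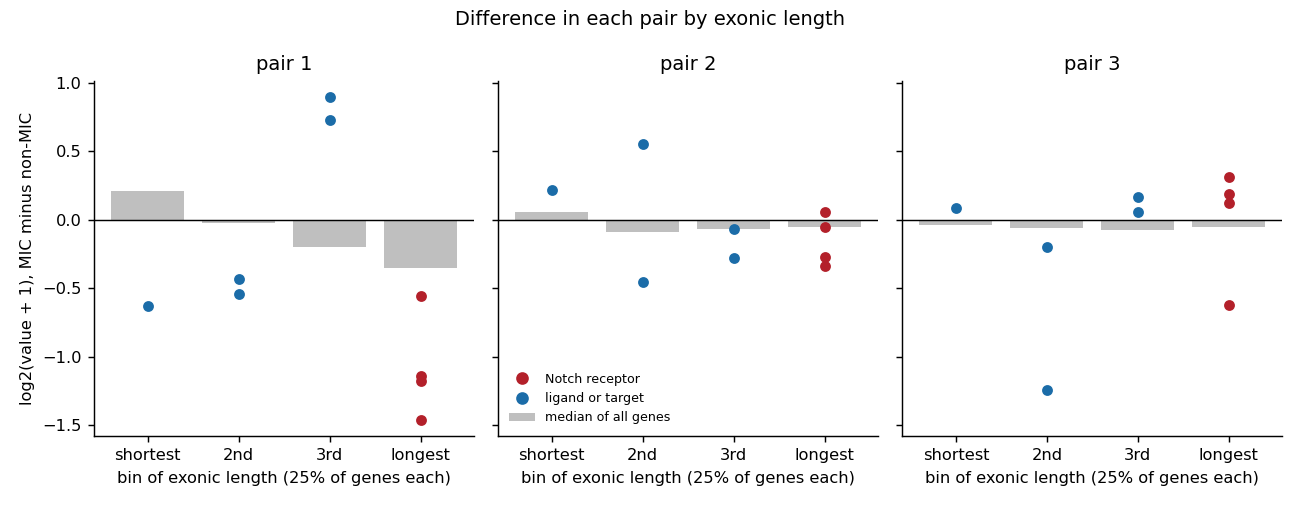
MIC minus non-MIC difference of log2(scaled value + 1) in each pair, in 4 bins of exonic length that hold 25% of the genes each. Grey bars are medians over 11159 genes with a mean scaled value of at least 100, and points are the members other than Dll4, with receptors in red. The bars fall from 0.21 to -0.35 in pair 1 and stay near 0 in pairs 2 and 3.

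Among the ligands the span of the pair means was larger than the mean difference between the populations, as it was in the other members except Notch1. In that mean, pairs of opposite sign cancel. A single pair differed by more than the span in Notch1, Notch3, Notch4, Hes1 and Hey1, such as pair 1 of Notch3 (-1.46 against a span of 1.04). Jag2 (ENSMUSG00000002799, chromosome 12, 112907819 to 112929776), a Jagged ligand of epithelia, had scaled values of 1105, 2580 and 186 in MICs and of 667, 3136 and 179 in non-MICs. Both libraries of pair 2 were high and both of pair 3 were low, so that the pair means spanned 15.5-fold, or 3.96 on the log2 scale, whereas MICs stood at 1.66, 0.823 and 1.04 times the non-MICs. A span as wide was uncommon: 2.16% of 11173 genes with a mean scaled value of at least 100 had a larger one, and the median gene spanned 0.59. The unblocked limma interval of the Jag2 difference ran from -2.63 to 2.97, and with the block it was -0.28 to 0.62. In fits without the block, the sign of its mean depended on single libraries. It was -0.056 without MIC library 1, -0.67 without MIC library 2 and -0.84 without non-MIC library 3. Such a fit leaves a partner unmatched, so the level shared by a pair enters the mean. With the block and a whole pair left out, the mean was -0.11, 0.39 and 0.22 without pairs 1, 2 and 3.

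Dll1 (ENSMUSG00000014773, chromosome 17, 15367354 to 15376872), a Delta-like ligand known from basal mammary cells, had scaled values of 1049, 394 and 684 in MICs and of 1412, 539 and 783 in non-MICs. In every pair the MIC library was the lower, by -0.43, -0.45 and -0.19 on the log2 scale, although the groups overlapped because pair 1 was highest and pair 2 lowest in both populations. Dll1 was the 1 member of 10 with the same sign in all 3 pairs. Of all genes 18.8% were lower and 12.5% higher in all 3 pairs, and of those with a mean scaled value of at least 100, 28.5% and 13.1%. The mean of -0.36 ± 0.47 (SE of limma) had a blocked 95% interval of -0.74 to 0.02 and a blocked adjusted p of 0.458 in limma. Without the block, the mean was 0.0098 with MIC library 2 left out and 0.015 with non-MIC library 1 left out. With the block, it was -0.32, -0.31 and -0.44 with pair 1, 2 or 3 left out. The SD of its pair differences, 0.14, was the smallest among the members.

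Jag1 (ENSMUSG00000027276, chromosome 2, 137081456 to 137116644), the other Jagged ligand and the most abundant ligand here, had scaled values of 9859, 4118 and 9684 in MICs and of 5295, 4319 and 8626 in non-MICs. It was 1.86 times as high in MICs in pair 1, 0.953 times in pair 2 and 1.12 times in pair 3, and both libraries of pair 2 were the lowest. The mean log2 difference was 0.33 ± 0.41 (SE of limma), with a blocked 95% interval of -0.09 to 0.76. The mean was 0.049 without pair 1, 0.12 without MIC library 1, 0.13 without MIC library 3, 0.12 without non-MIC library 2, 0.75 without MIC library 2, 0.62 without non-MIC library 3 and 0.53 without pair 2. After subtraction of the length trend the Jag1 differences were 1.08, -0.05 and 0.26, and the blocked mean was 0.43 with an adjusted p of 0.364 in limma.

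Dll4 (ENSMUSG00000027314, chromosome 2, 119325784 to 119335962), the Delta-like ligand of endothelial tip cells, was at or near the counting floor, with 0, 6 and 36 reads in MICs and 2, 7 and 30 in non-MICs. A count of 0 allows up to 3 reads, so no ratio was formed in pair 1. In pairs 2 and 3 the reads of both populations lay close together, and pair 3 was higher than pairs 1 and 2 in both. This low level stood beside endothelial marker sums of 55 to 224 reads.

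The target genes shared a sign in pairs 1 and 2 and not in pair 3. Hes1 (ENSMUSG00000022528, chromosome 16, 30064384 to 30067796) had scaled values of 4940, 8033 and 8405 in MICs and of 7631, 6919 and 7900 in non-MICs. MIC library 1 was low, at 0.647 of its partner, and the other 5 libraries lay between 6919 and 8405. The mean log2 difference was -0.11, with a blocked 95% interval of -0.52 to 0.31. Without MIC library 1 the mean in limma was 0.14. Hes1 is also among the shorter members, with 2037 exonic bases, so its pair 1 difference of -0.63 lay opposite to the median of its length bin (0.21).

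Hey1 (ENSMUSG00000040289, chromosome 3, 8663359 to 8667256), a repressor of the Hes-related family, had scaled values of 94.9, 73.4 and 79.1 in MICs and of 139, 49.7 and 189 in non-MICs, from 47 to 269 reads. The MIC libraries lay close together, with an SD of 0.19 on the log2 scale, and the non-MIC libraries spread more widely, with an SD of 1.00. The MIC to non-MIC ratios of 0.684, 1.48 and 0.419 went both ways, and the mean log2 difference was -0.41, with a blocked 95% interval of -1.17 to 0.35 and a value of 0.0062 without pair 3. In log2 differences, Hes1 and Hey1 were both lower in MICs in pair 1 (-0.63 and -0.54) and both higher in pair 2 (0.22 and 0.55), and in pair 3 Hes1 was at 0.09 and Hey1 at -1.24.

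Over the 10 members the log2 difference was below 0 in 8 and above 0 in 2, Jag1 and Jag2, beside 12081 and 10229 of all 22310 genes. Its median was -0.36, beside -0.04 over all genes. By pair, 8, 7 and 3 of the 10 were lower in MICs, with medians of -0.59, -0.10 and 0.11, beside 50.6%, 42.6% and 62.7% of all genes, with medians of -0.02, 0.04 and -0.05. Of genes with a mean scaled value of at least 100, as 9 of the members have, 56.6%, 53.3% and 65.1% were lower. Their medians were -0.09, -0.04 and -0.05. The count of lower members thus differed between the pairs.

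Genes with the nearest profile were sought for the 3 members with the largest differences and at least 10 reads in every library, as the smallest root-mean-square distance of centred log2 values over 6 libraries among 11173 genes. For Notch1 they were Ago2 (0.080), Wdfy3 (0.099) and Sh3pxd2b (0.112), for Notch3 they were Zfp579 (0.166), Sugp2 (0.197) and Ppp2r3d (0.205), and for Hey1 they were BC006965 (0.256), Dclk2 (0.261) and mt-Nd6 (0.270). Ago2, the Argonaute protein that slices target RNA, differed by -1.06, -0.46 and 0.27 over the pairs, as did Notch1 in order. No test was applied, since these genes were picked for likeness.

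Of 68 other Notch pathway genes listed by role, 64 were in the table, Dlk1, Hes2, Hes3 and Hes5 being not listed. No gene of the 64 passed limma with or without the block, and DESeq2 with the block called 0. edgeR with the block called 1 of the 64, Maml3, which is near the 1.41% it called over all genes. Maml3, a Mastermind coactivator of the RBPJ complex, had scaled values of 180, 407 and 558 in MICs and of 581, 534 and 658 in non-MICs. It was lower in MICs in all 3 pairs, by -1.68, -0.39 and -0.24, with an adjusted p of 0.042 in edgeR with the block and of 0.417 in limma with the block. It has 10486 exonic bases, which places it in the longest 25%. Rbpj, the DNA-binding partner, did not follow it, with differences of -0.07, 0.19 and 0.01.

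Counted by sign, 49 of the 64 had a log2 difference below 0 and 15 above, with a median of -0.16. Of all 22310 genes, 12081 were below 0 and 10229 above, with a median of -0.04. The counts below 0 by role that follow are to be read beside that share. In all 3 pairs 24 were lower in MICs and 3 higher, and of the 52 with a mean scaled value of at least 100, 22 (42.3%) were lower and 3 (5.77%) higher, to be read beside 28.5% and 13.1% of all such genes. At an unadjusted p under 0.05 the blocked limma fit held 9 lower and 3 higher of the 64, beside 5.97% and 5.24% of all genes, and edgeR with the block 10 and 3, beside 5.85% and 5.89%. Of these 52 genes, 17 belong to the longest 25%. No test was made of the list.

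Corepressors, which bind RBPJ-containing complexes and silence targets in the absence of Notch, were below 0 in 11 of 12, and 7 of the 12 were lower in all 3 pairs. Of the 11 with a mean scaled value of at least 100, 6 (54.5%) were lower in all 3 pairs, beside 28.5% of all such genes. Tle2, a Groucho-family corepressor, was lowest, with 34, 118 and 91 reads in MICs and 117, 130 and 153 in non-MICs and a mean log2 difference of -0.86. Hdac1, a histone deacetylase, was the exception, higher in all 3 pairs by 0.62, 0.03 and 0.15. Among the nuclear complex and coactivators 6 of 9 were below 0, with Maml3 at the low end and Maml2 (0.16) at the high end.

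Of the 5 glycosyltransferases, which modify the receptors' EGF repeats, 4 were below 0. Rfng, a Fringe enzyme that tunes the response to Delta and Jagged ligands, had 249, 267 and 571 reads in MICs and 462, 545 and 673 in non-MICs, and its scaled values did not overlap between the populations. Its log2 differences were -0.86, -0.95 and -0.29, and its adjusted p was 0.080 in edgeR with the block and 0.405 in limma with the block. Poglut1, which adds O-glucose, was at the high end with 0.42. The genes without overlap numbered 3 of 64, near the 3.55% of all genes that were lower without overlap: Rfng, Aph1a (a γ-secretase subunit, -0.15) and Mib1 (a ubiquitin ligase for the ligands, -0.31).

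Receptor cleavage genes stayed nearest to 0, with 6 of 10 below it and a range from -0.27 for Furin, the convertase of the first cleavage, to 0.39 for Aph1c, a γ-secretase subunit with 24 to 148 reads. Aph1b and Aph1c are close paralogs, and reads may be split between them. In trafficking and turnover 13 of 16 were below 0. The 14 with at least 10 reads in every library ran from -0.62 to 0.27. The ends of that range were Dtx3, a Deltex-family ubiquitin ligase, and Egfl7, a secreted protein of vessels.

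Among other targets and relatives of Hes1 and Hey1, 7 of 9 were below 0. The remaining ligands in the table, Dll3, Dlk2 and Cntn1, each had fewer than 10 reads in at least 1 library of both populations and are not described singly. Hey2, the closest relative of Hey1, went the other way, with 194, 119 and 120 reads in MICs and 79, 84 and 76 in non-MICs. Scaled for depth, the values of Hey2 overlapped between the populations, as MIC library 3 (81.1) lay below non-MIC libraries 1 (83.6) and 2 (88.8). The log2 difference of Hey2 was 1.31, 0.57 and 0.60 over the pairs, all above 0, where Hey1 was at -0.54, 0.55 and -1.24. However, the adjusted p of Hey2 was 0.153 in edgeR with the block and 0.418 in limma with the block. Nrarp, a feedback inhibitor of Notch, was lower in all 3 pairs by -0.20, -0.64 and -0.30. The 3 genes higher in all 3 pairs were Hey2, Hdac1 and Aph1b.

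**Figure D5:**
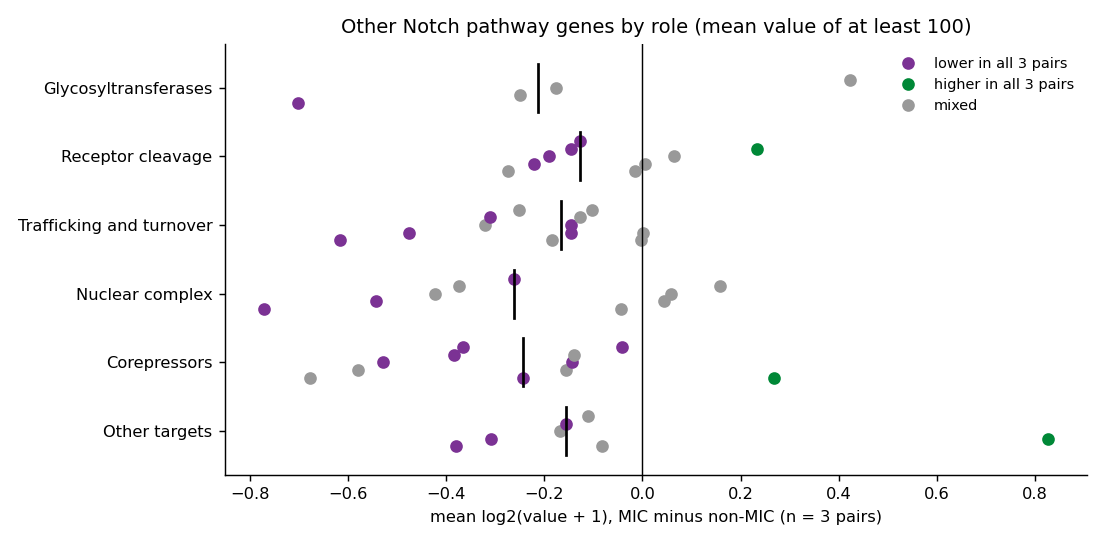
Mean MIC minus non-MIC difference of log2(scaled value + 1) for the 52 other pathway genes with a mean scaled value of at least 100, by role, with the median of each role as a black line. Purple points were lower and green points higher in MICs in all 3 pairs. The median of each role lies below 0, and Hey2 is the point at the far right.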

How the data were processed

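The authors made stranded mRNA libraries and counted reads per gene. The study's methods name a Bowtie2 and samtools pipeline and the submitters' processing notes name STAR, HTSeq and GRCm38 (mm10), so the aligner is uncertain, and the strand setting of the counting is not given in the sources used here. The deposited signal is gene counts scaled to 35000000 per library. Whole reads were recovered for 99.99% to 100% of the values of a library (tolerance 0.01 reads). Depth sets counting error only. GENCODE vM21 named 22161 of 22310 genes. Notch1, Notch3, Dll1 and Dll4 share exon positions with genes on the opposite strand, of which 0610009E02Rik, within Notch1, was in the table with at most 9 reads, and Notch2 shares exon positions with Gm42820 on its own strand, which had at most 28.

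limma 3.58.1 (R 4.3.3) was fitted to log2(value + 1) over all genes without a block, with Benjamini-Hochberg adjustment at 0.05. The shared numbers pair the libraries: departures of same-numbered libraries correlated at 0.573, 0.668 and 0.746 and those of different numbers between -0.536 and -0.194. The study describes its replicates as separate experiments or tumors, without saying which, and the labels name no animal, so p-values measure the spread between these libraries. edgeR 4.0.16 and DESeq2 1.42.0 were run on recovered reads, and the procedures were tested on simulated data. Other alternatives were TMM, a pseudocount of 0.1 or 10, genes at or above the median mean value only, quantile normalization, no trend, leaving out libraries or pairs and, chosen after seeing the data, subtraction of a lowess trend (span 0.3) on exonic length. Members, pathway list and marker lists were chosen with earlier results of these data known. Named pathway genes were those called in limma or edgeR and the highest and lowest of each role with at least 10 reads in every library. Rbpj, Aph1a, Aph1b and Mib1 were named after their values were seen. Summaries used Python 3.11.15, numpy 2.4.6 and pandas 2.3.3.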

Additional observations from a re-analysis of the deposited data

How the results depend on the processing

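The number of members called was 0 under each of 22 alternatives, and depth limits mainly Dll4. Over all genes limma called 0 without a block, 29 with the replicate block and 92 with length-centred values and the replicate block. edgeR with the replicate block called 315, and DESeq2 called 1 without and 133 with the replicate block. Leaving out 1 library or pair gave between 0 and 59 called genes (11 without pair 1, 59 without pair 2 and 0 without pair 3, all with the block). Of the other pathway genes edgeR with the replicate block called 1, Maml3, and every other alternative run called 0, DESeq2 with the block included. The replicate block changed no call of a member.

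Notch1, Notch3 and Jag1 kept their direction under all 22 alternatives, with ranges of -0.76 to -0.073, -1.06 to -0.28 and 0.049 to 0.75 when 1 library or pair was left out. Jag2 (0.17 in limma) turned to -0.090 in edgeR and -0.064 in DESeq2 without the block, and Dll4 (-0.52) to 0.060 and 0.084, and with pseudocounts of 0.1 and 10 Dll4 was at -1.47 and -0.064. With 1 library or pair left out, the mean log2 difference ran from -0.41 to 0.085 for Notch2, from -0.66 to 0.14 for Notch4, from -0.84 to 1.23 for Jag2, from -0.70 to 0.015 for Dll1, from -1.59 to 0.74 for Dll4, from -0.27 to 0.15 for Hes1 and from -0.97 to 0.0062 for Hey1. Notch2 and Hes1 turned without MIC library 1 or pair 1, and Notch4 without non-MIC library 1 or pair 1. Jag2 turned without MIC library 1 or 2, non-MIC library 3 or pair 1, and Dll4 without MIC library 1, non-MIC library 3 or pair 1. Dll1 turned without MIC library 2 (0.0098) or non-MIC library 1 (0.015), and Hey1 without pair 3. The fits with 1 library left out had no block, so a partner stayed unmatched and the level shared by a pair entered the mean. The fits with a pair left out had the block, and there Dll1 was at -0.32, -0.31 and -0.44 without pairs 1, 2 and 3. The cause of the turns was not tested further. Dll4 fell under the filter on low values and has no value there.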
